A study of Rattus norvegicus with 35 samples.

Results

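The genes described here encode proteins of growing axons and of the cytoskeleton of immature neurons: Gap43, Stmn1, Stmn2, Dpysl3, Dpysl5, Gng8, Tubb3, Dcx, Crmp1 and Ncam1. They were chosen by name, with earlier results of these data known, so counts set beside shares of all transcripts do not test the group. The array probes annotated with those symbols were taken, which gave 11 probes for 10 of the 13421 gene symbols on the array. RNA of the olfactory epithelium of Brown Norway rats was hybridised to 35 whole rat genome arrays read in 1 colour, to compare transcription at birth, in adulthood and in old age. The 19 newborn pups were 3 to 5 days old, of unstated sex, and came from 4 litters (L1 with 4 pups, L2, L3 and L4 with 5 each), 1 array per pup. The 4 adult males were 9 weeks old and the 4 old males 22 months old, each with 1 array per side of the nose, and no animal was treated.

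An olfactory sensory neuron is born from basal progenitors throughout life, sends an axon to the olfactory bulb while still immature, and only later makes the odorant signalling proteins of the mature cell. Gap43 is a membrane protein of growth cones; Stmn1 and Stmn2 bind tubulin and destabilise microtubules; Dpysl3, Dpysl5 and Crmp1 are collapsin response mediator proteins, which carry guidance signals to the cytoskeleton; Dcx binds and stabilises microtubules; Tubb3 is the neuronal beta tubulin; Gng8 is a G protein gamma subunit of immature olfactory neurons; and Ncam1 is an adhesion molecule of neurons and their axons. Gap43, Gng8, Dcx and Tubb3 are in common use as labels of the immature olfactory neuron, while Stmn1 is also made by dividing cells and Ncam1 by neurons of every stage.

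Levels are log2 of the background-subtracted spot intensity over the median intensity of the array, averaged over both sides in adult and old rats, so that 1 unit is a change of 2-fold. The array medians lay between 42.1 and 87.7 intensity units in newborn, 81.6 and 162 in adult and 37.1 and 55.3 in old rats, and the probes above background numbered 24484 to 28361, 25273 to 28020 and 25275 to 27426. Of the 10 genes, 9 were expressed in common, that is above background on at least 3 arrays of each litter and at least 6 of the 8 adult and of the 8 old arrays. Tubb3 lacked usable values on 4 adult arrays and was fitted among all 41012 probes with 3 adult rats, without rat 13 and with only 1 side each for rats 14 and 15, and Dcx lacked a value for rat 12 of L1 and was fitted with 18 pups. The adult arrays were scanned on separate days with another release of the scanning software, so the adult group, scan day and software cannot be told apart, whereas L1 and the old rats shared a scan day. In bulk tissue, fewer cells and less RNA per cell cannot be told apart either. Each litter was a group of the fit and newborn the mean of the 4 litters. The standard errors and p-values of newborn differences therefore rest on the spread of rats within groups. They treat littermates as independent and leave out the spread between litters, unless litter means are named.

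Against adult rats, 7 of the 9 genes were higher in newborn rats at an adjusted p under 0.01, beside 39.7% of the 23668 transcripts expressed in common, and 1 was lower, beside 26.7%. Against old rats 8 of 9 were higher, beside 28.4% of transcripts. With slides fitted as random blocks 7 were called higher than in old rats, beside 25.2%, and with scan days 6, beside 23.6%. Their changes were moderate. Called changes ran from 1.55-fold to 3.08-fold against adult rats and from 1.33-fold to 3.05-fold against old rats. In limma 0 of the 9 were called higher at 5-fold or more, beside 1.44% and 1.77% of transcripts called higher by that much. The median change of the 9 genes was 0.99 against adult rats, beside 0.15 for all transcripts, and 1.43 against old rats, beside -0.03. Under quantile normalisation the 9 changes against adult rats ran from -1.09 (Ncam1) to 1.09 (Dcx), with the middle one, Gng8, at 0.36. The median of all transcripts between newborn and adult rats depended on the scaling: it was 0.15 after division by the array median, 0.02 after division by the 75th percentile and -0.03 after quantile normalisation, and the share of called transcripts that were higher in newborn rats was 59.8%, 50.4% and 47.3%. For bright probes the dependence was larger, since the brightest 10% of transcripts had a median change of 0.65 by array median and 0.11 by quantile normalisation, and Gap43, Stmn1, Stmn2, Gng8 and Dcx belong to those 10%.

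**Figure D1:**
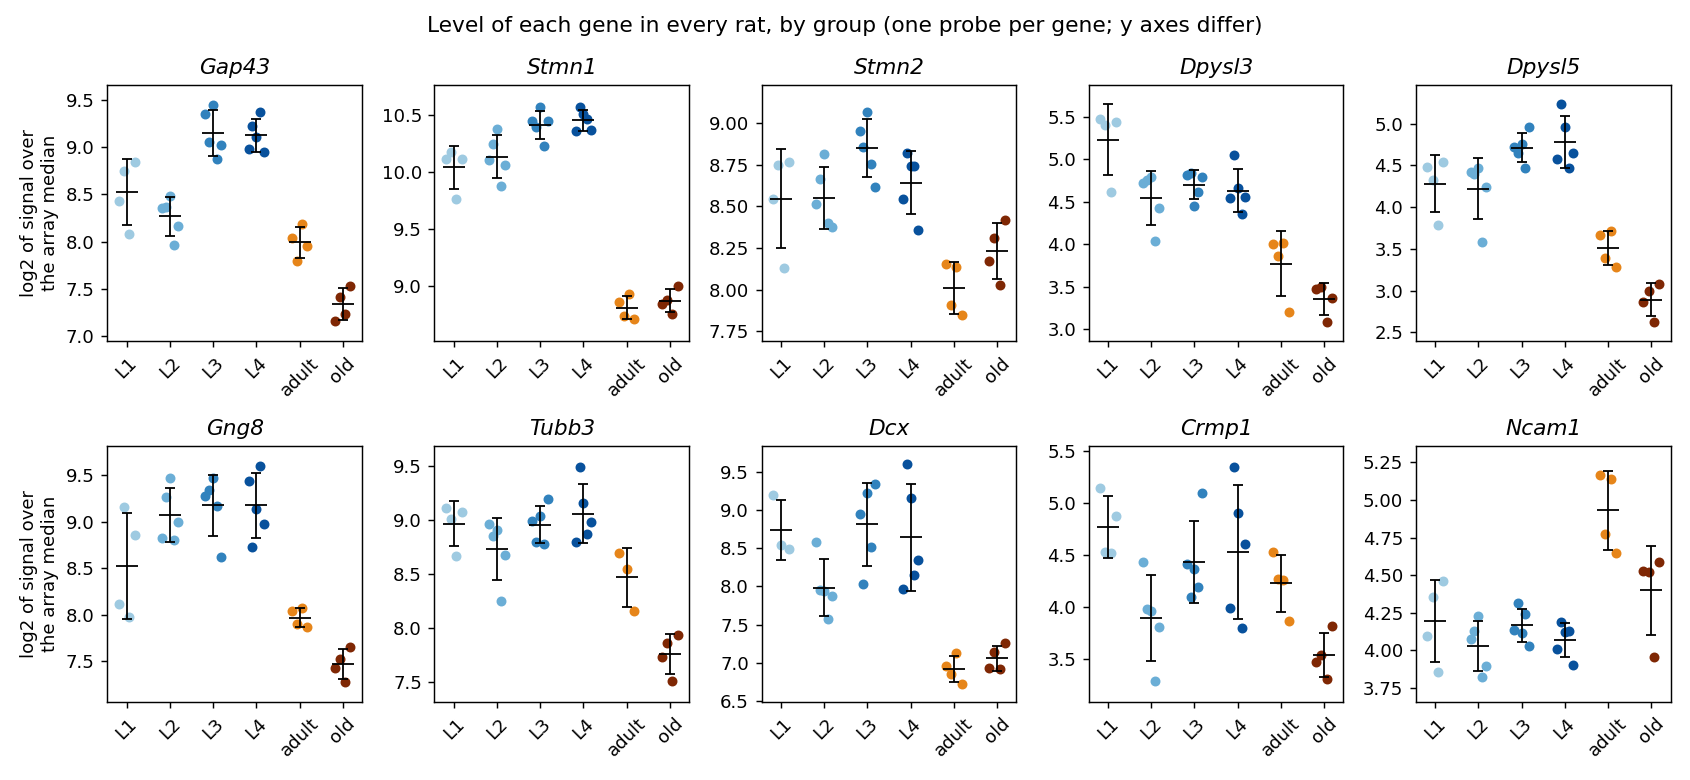
Level of each gene (log2 of intensity over the array median, vertical axis) in each newborn pup by litter, each adult rat and each old rat, with 1 point per rat, a long bar at each group mean and an error bar of 1 SD. Stmn1 and Dcx are higher in every newborn pup with a value than in every adult and old rat, and Ncam1 is lower in every pup than in every adult rat.

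Gap43 was measured by 1 probe on chromosome 11 (rn3). The L1 pups had levels of 8.43, 8.74, 8.08 and 8.85, those of L2 8.36, 8.37, 8.48, 7.96 and 8.17, those of L3 9.35, 9.05, 9.44, 8.87 and 9.02, and those of L4 8.98, 9.22, 9.10, 9.37 and 8.95. Adult rats had 8.04, 7.79, 8.18 and 7.96 and old rats 7.16, 7.42, 7.24 and 7.53. All 19 pups lay above all old rats and 16 of the 19 above all adult rats, and the adult and old ranges did not overlap. The difference from old rats was 1.43 ± 0.12 (SE; adjusted p 2.0e-10), and that from adult rats 0.77 ± 0.12 (adjusted p 3.2e-06), or 0.62 relative to the median of all transcripts. With the pups entered as litter means, the limma adjusted p was 2.7e-05 against old and 0.0024 against adult rats. The newborn to adult difference of Gap43 was 0.12 (adjusted p 0.320) under quantile normalisation, and with a normexp background correction before it the direction turned, to -0.04. Adult rats had 0.66 ± 0.15 more Gap43 than old rats (adjusted p 0.00081), with an adjusted p of 0.0042 when slides and 0.0139 when scan days were fitted as blocks.

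Of the stathmins, Stmn1 ranged from 9.76 through a median of 10.36 to 10.57 in newborn pups, against 8.86, 8.74, 8.94 and 8.72 in adult and 8.84, 8.88, 8.76 and 9.00 in old rats. Every pup was above every adult and old rat, and the adult and old ranges overlapped. Stmn1 was higher in newborn rats by 1.45 ± 0.08 than in adult (adjusted p 5.7e-14) and by 1.39 than in old rats (adjusted p 2.1e-13), and under quantile normalisation it was still called against adult rats, at 0.64. The second Stmn1 probe gave 0.90 and 1.15 for the same differences. The starts of both probes are given because they carry the same gene symbol, lie apart on chromosome 5 (rn3, plus strand) and returned different sizes, the first at chr5:153241770-153241828 and the second at chr5:153241158-153241217. Whether they lie in coding sequence could not be checked without a protein sequence.

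Stmn1 first probe: tccctgacaaatattctagaagctgatgta

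Stmn1 second probe: gctccagaaagccattgaggataacaacaa

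Stmn2 ran from 8.13 through a median of 8.74 to 9.07 in newborn pups, and was 8.16, 7.91, 8.13 and 7.85 in adult and 8.17, 8.31, 8.03 and 8.42 in old rats. The newborn range overlapped both others. Stmn2 was higher in newborn rats by 0.63 ± 0.11 than in adult (adjusted p 1.1e-05), a direction that turned to -0.02 under quantile normalisation and to -0.34 with normexp, where it was called lower (adjusted p 0.0012). Against old rats Stmn2 was higher by 0.41 (adjusted p 0.0016), with an adjusted p of 0.0102 when slides and 0.0166 when scan days were fitted as blocks and 0.0153 without the old rat 19. Whether Stmn1 and Stmn2 changed by different amounts was not tested. Between adult and old rats neither stathmin was called, Stmn1 at -0.06 and Stmn2 at -0.22, and both directions turned under quantile normalisation, to 0.63 and 0.37, the first called. The second Stmn1 probe gave 0.25 more in adult than in old rats, not called (adjusted p 0.030), with all 4 adult rats above all 4 old rats.

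Among the collapsin response mediator genes, Dpysl3 ran from 4.04 through a median of 4.72 to 5.48 in newborn pups, against 3.997, 3.86, 4.01 and 3.20 in adult and 3.47, 3.50, 3.08 and 3.37 in old rats. All pups were above all adult and old rats. The excess of Dpysl3 was 1.01 ± 0.16 over adult (adjusted p 3.0e-06) and 1.43 over old rats (adjusted p 2.0e-08), and 0.83 over adult rats under quantile normalisation, while by the test of the authors' methods the adult comparison was not called (0.0135). Dpysl5 ran from 3.58 through 4.48 to 5.23 in pups, with 3.67, 3.39, 3.71 and 3.28 in adult and 2.87, 2.99, 2.62 and 3.08 in old rats. Only 1 pup, rat 24 of L2, fell within the adult range, and the adult and old ranges did not overlap. Dpysl5 was higher in newborn than in old rats by 1.61 (adjusted p 1.1e-09) and than in adult rats by 0.99 ± 0.15 (adjusted p 2.2e-06). Dpysl5 was also higher in adult than in old rats, by 0.62 (adjusted p 0.0073), a call that ended with slides (0.0246) or scan days (0.0487) as blocks, in the fit of all probes (0.0129) and without any 1 of the rats 13, 14, 15, 17, 18 and 19 (0.0102 to 0.0306).

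The remaining collapsin response mediator gene of the group is Crmp1. It ran from 3.29 through a median of 4.42 to 5.35 in newborn pups, and was 4.53, 4.27, 4.26 and 3.87 in adult and 3.48, 3.54, 3.32 and 3.83 in old rats. The newborn range enclosed all adult rats. Crmp1 was not called against adult rats, at 0.18 (adjusted p 0.458), turning to -0.04 under quantile normalisation, and it was higher than in old rats by 0.87 ± 0.21 (adjusted p 0.00098; 0.0150 with scan days as blocks). Between adult and old rats Crmp1 was higher by 0.69 in adult rats, not called (adjusted p 0.035), but called with litter means (0.0067), with every array and rat as a random block (0.0098) or in a fit of those groups alone (0.0032). Whether the change of Crmp1 differed from those of Dpysl3 and Dpysl5 was not tested.

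Dcx ran from 7.57 through a median of 8.51 to 9.60 in 18 pups, against 6.96, 6.86, 7.12 and 6.73 in adult and 6.93, 7.14, 6.93 and 7.26 in old rats. No pup overlapped either group, and adult and old rats overlapped each other. Dcx was higher in newborn rats by 1.62 ± 0.24 than in adult (adjusted p 1.7e-06) and by 1.48 than in old rats (adjusted p 8.0e-06), and by 1.09 than in adult rats under quantile normalisation. Adult and old rats differed by -0.14 in Dcx, not called, with the direction turned to 0.35 under quantile normalisation.

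Tubb3 ran from 8.24 through a median of 8.96 to 9.49 in newborn pups, and was 8.69, 8.54 and 8.16 in the 3 adult rats with values and 7.73, 7.86, 7.51 and 7.93 in old rats. Newborn and adult ranges overlapped, and all pups were above all old rats. Tubb3 was higher than in old rats by 1.17 (adjusted p 1.2e-07), beside 20.4% of all 41012 probes called higher. Against adult rats it was not called, at 0.46 (adjusted p 0.0113), with the direction turned to -0.23 under quantile normalisation, and it was called without rat 11 (0.0070), 24 (0.0033), 31 (0.0089) or the adult rat 14 (0.0090) and when every array entered with rat as a random block (0.0037). Tubb3 was higher in adult than in old rats by 0.71 (adjusted p 0.0031), beside 11.7% of all probes, a call that ended with slides (0.0103) or scan days (0.0242) as blocks, in a fit of those groups alone (0.0145) and without rat 14 (0.0250), 15 (0.0146) or 19 (0.0128).

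Gng8 ran from 7.98 through a median of 9.14 to 9.60 in newborn pups, with 8.04, 7.90, 8.08 and 7.86 in adult and 7.43, 7.53, 7.28 and 7.65 in old rats. The lowest pup, rat 11 of L1, fell within the adult range, and all pups were above all old rats. The excess of Gng8 over old rats was 1.52 (adjusted p 4.7e-08) and that over adult rats 1.02 ± 0.18 (adjusted p 1.4e-05), the second reduced to 0.36 (adjusted p 0.0327) under quantile normalisation. Adult and old rats did not overlap in Gng8, yet their difference of 0.50 was not called (adjusted p 0.060). It was called when the pups entered as litter means (adjusted p 0.0093), in a fit of adult and old rats alone (0.0019) and, at 1.11, under quantile normalisation (2.9e-05).

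Ncam1 was the gene that changed the other way. It ran from 3.82 through a median of 4.12 to 4.46 in newborn pups, and was 5.17, 4.77, 5.14 and 4.64 in adult and 4.53, 4.52, 3.96 and 4.59 in old rats. All 19 pups were below all adult rats, while the old rat 19 lay within the newborn range. Ncam1 was lower in newborn than in adult rats by 0.82 ± 0.11 (a change of -0.82, adjusted p 5.6e-07) and the change was -1.09 under quantile normalisation, while by the test of the authors' methods it was not called (0.0102). Against old rats the change of Ncam1 was -0.28 and was not called (adjusted p 0.028), so limma called 0 of the 9 genes lower than in old rats, beside 31.5% of transcripts, with 1 at an unadjusted p under 0.05. Without the old rat 19 Ncam1 was called lower than in old rats, at -0.43 (adjusted p 0.0017). Adult rats had 0.53 more Ncam1 than old rats (adjusted p 0.0030), a call that ended with slides (0.0148) or scan days (0.0345) as blocks, with litter means (0.0101), in a fit of those groups alone (0.0209) and without rat 13 (0.0157), 15 (0.0143) or 19 (0.0212). The Ncam1 probe spans chr8:52844977-52845972 (rn3), longer than its 60 bases, and the array does not separate the isoforms of the gene.

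**Figure D2:**
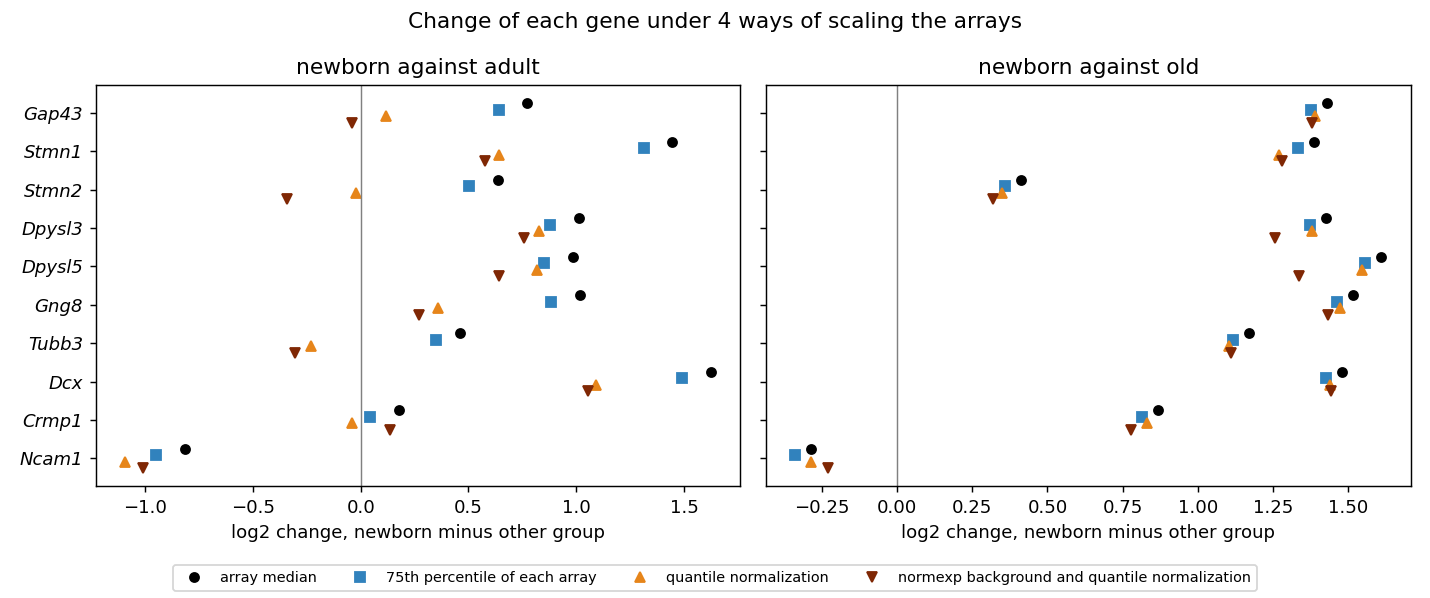
Change of each gene between newborn and adult rats and between newborn and old rats (log2, horizontal axis) under each scaling of the arrays, with 1 symbol per scaling. Against adult rats Gap43, Stmn2, Tubb3 and Crmp1 lie on both sides of 0 or near it, and against old rats the symbols of each gene lie close together.

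Under quantile normalisation 4 of the 9 genes were called higher than in adult rats, beside 31.6% of transcripts, and 4 with normexp before it, beside 30.9%, while against old rats each scaling gave 8. Ncam1, Dcx, Stmn1, Dpysl3 and Dpysl5 kept their direction and their call against adult rats under each scaling tried. Adult against old rats, 3 of 9 genes were called higher (Gap43, Dpysl5 and Ncam1), beside 15.9% of transcripts, with a median of 0.50 beside -0.18 for all transcripts, which was -0.02 under quantile normalisation. There the share of called transcripts that were higher in adult rats was 33.6% by array median and 50.3% by quantile normalisation, and the count of the 9 genes was 5 under quantile normalisation, beside 22.9% of transcripts, and 6 with normexp before it, beside 23.6%. With slides as blocks 1 of the 9 was called higher in adult than in old rats, beside 12.9% of transcripts, and with scan days as blocks 0, beside 10.8%, both in limma. Without blocks 5 of 9 were higher at an unadjusted limma p under 0.05. That threshold is looser, so the count cannot be compared with those under blocks. No share of all transcripts is given at that threshold, here or elsewhere.

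L1 and the old rats were scanned on the same day, and on that day 7 of the 9 genes were called higher in L1, beside 17.0% of transcripts. The changes were 1.88 for Dpysl3, 1.68 for Dcx, 1.39 for Dpysl5, 1.23 for Crmp1, 1.19 for Gap43, 1.17 for Stmn1 and 1.05 for Gng8. Tubb3, among all probes, was higher by 1.21. Stmn2 was not called on that day, at 0.31 (adjusted p 0.107), nor was Ncam1, at -0.21 (adjusted p 0.334).

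Differences among the 4 litters were called for 2 of the 9 genes, beside 37.9% of transcripts. For Gap43 the litter means were 8.52, 8.27, 9.15 and 9.12 from L1 to L4 (adjusted p 1.2e-05), a 1.84-fold difference between L3 and L2, and for Stmn1 they were 10.04, 10.13, 10.42 and 10.45 (adjusted p 0.0014). A call came about for Dpysl3 without rat 11 (adjusted p 0.0017), rat 32 (0.0093) or the adult rat 16 (0.0086), for Dpysl5 without rat 34 (0.0091) and for Gng8 without rat 10 (0.0050). Taken litter by litter, Stmn1, Stmn2, Dpysl3, Dpysl5 and Dcx were called higher than in adult rats in 4 of 4 litters, Gap43 and Gng8 in 3, Tubb3 in 1 and Crmp1 in 0 by limma, and Ncam1 was lower in 4 of 4. These calls used division by the array median, by which 39.7% of transcripts were called higher in the 19 pups than in adult rats. No share of all transcripts stands beside the litter counts. Over all pups Stmn2 turned to -0.02 under quantile normalisation and to -0.34 with normexp. Against old rats Stmn2 was called higher in 2 of 4 litters, Crmp1 in 3, Ncam1 in 0 and the other genes in 4. The exception for Gap43 against adult rats was L2, at 0.27 (adjusted p 0.099). Individual pups stood low or high for many genes together: rat 11 was the lowest of L1 for 10 genes and rat 24, the only L2 pup on its slide and scan day, the lowest of L2 for 9, and rat 32 was the highest of L4 for 8 and rat 23 the highest of L2 for 7. Between the sides of the nose the genes differed by a median of 0.15 in adult and 0.11 in old rats.

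Gap43 was also set against the mature neuron marker Omp on the same array. This cancels a factor common to all probes of an array, but not a shift that depends on the level of a probe. Since Omp itself fell in newborn rats, most transcripts rose relative to it, and the change of Gap43 became larger. The log2 difference Gap43 minus Omp, of which only the change between groups has meaning, was 3.52, 3.28, 3.82 and 3.81 as means of L1 to L4, 0.18, 0.34, 0.54 and 0.63 in adult rats and -1.06, -0.88, -0.78 and -0.97 in old rats. No group overlapped another. The change of 3.18 from adult to newborn, 9.07-fold, and that of 4.53 from old to newborn, 23.2-fold, each had an exact two-sided permutation p of 0.0286, the smallest that 4 litters against 4 rats allow. Every transcript whose litter means all lie above all 4 rats has this p, so it says nothing particular to Gap43. Relative to Gnal the changes were 6.97-fold and 12.7-fold, and relative to Cnga2 6.39-fold and 13.1-fold. Omp itself changed by -2.41 and -3.11, and the median of all other transcripts relative to Omp changed by 2.56 and 3.07. All 9 genes expressed in common were higher relative to Omp in 4 of 4 litters than in every adult rat, beside 97.1% of transcripts, and than in every old rat, beside 99.2%. Ncam1 changed by 1.59 and 2.82 relative to Omp, less than that median, by 1.21 and 1.96 relative to Gnal and by 1.09 and 1.997 relative to Cnga2.

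Relatives of these genes in the same pathways moved in both directions. Of 60 genes in 6 lists, 51 had a probe and 48 were expressed in common; 25 were higher and 6 lower in newborn than in adult rats, beside 39.7% and 26.7% of transcripts, and 17 higher and 8 lower under quantile normalisation, beside 31.6% and 35.2%. Of the other stathmin, mediator and doublecortin genes 3 of 6 were higher, led by Dpysl4 at 2.46, and 1 lower, Stmn4 at -1.23, with Dpysl2 the brightest. Tubulins gave 6 of 8 higher and 1 lower, with Tubb6 at 1.91, Tuba4a at -0.41 and Tubb4b brightest. Microtubule-associated proteins and neurofilaments gave 3 of 9 higher and 1 lower, with Mapt at 2.38, Map1a at -0.73 and Prph brightest. Growth cone membrane and actin genes gave 6 of 9 higher and 1 lower, with Basp1 at 1.60, Pak3 at -1.03 and Marcks brightest. Adhesion and polysialylation genes, the company of Ncam1, gave 2 of 9 higher and 2 lower, with Cntn1 at 0.72, Cntn4 at -1.88 and L1cam brightest. Of the gamma subunits beside Gng8, 5 of 7 were higher, led by Gng3 at 2.14 with Gng5 brightest, and Gng13 of mature neurons had no probe. Under quantile normalisation the 6 lists, in this order, had 1, 4, 2, 4, 2 and 4 genes higher and 1, 1, 2, 1, 3 and 0 lower than in adult rats. Against old rats the same 6 lists gave 25 of 48 higher and 5 lower, beside 28.4% and 31.5% of transcripts, and adult against old rats 7 higher and 8 lower, beside 15.9% and 31.4%.

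Of the markers of mature olfactory neurons, all 10 tested were lower in newborn rats than in adult and old rats under every scaling, with Cngb1 at -3.25 and Gnal at -2.03 against adult rats. Of all transcripts, 26.7% were called lower than in adult and 31.5% lower than in old rats. The share called higher than in adult rats, to set beside the next 2 lists, was 39.7%. The summed level of all genes of the list with a probe, as given for each list from here on in multiples of the array median, was 371 to 907 in pups with a median of 684, against 2312, 1962, 2199 and 1818 in adult and 2850, 3165, 2591 and 3424 in old rats, with S100a5 the brightest. Progenitor markers were higher in 4 of 6, with 1 lower under quantile normalisation, among them Neurog1 by 1.69, with sums of 184 to 605 in pups around a median of 402, 355, 296, 386 and 316 in adult and 346, 386, 334 and 424 in old rats, and Lhx2 brightest. Markers of dividing cells, which Stmn1 shares in part, were higher in 10 of 11, with Cdk1 at 2.96 and Mki67 at 2.48. Their sums were 470 to 804 in pups with a median of 604, against 145, 157, 204 and 235 in adult and 135, 120, 133 and 138 in old rats, with Cdk1 the brightest. How far the levels of the 10 genes follow those of these markers was not tested.

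Markers of other cell types were counted beside the 10 genes as well. The shares to set beside these counts against adult rats are 39.7% of transcripts higher and 26.7% lower. Under quantile normalisation they are 31.6% and 35.2%. Of horizontal basal cell markers 1 of 5 was higher, Krt15, also the brightest, with sums of 495 to 2629 in pups around 1186, 396, 426, 436 and 637 in adult and 986, 960, 814 and 775 in old rats. Sustentacular markers gave 1 of 6 higher (Krt18, the brightest) and 4 lower, turning to 5 lower alone under quantile normalisation, with Cyp1a2 at -3.99, and sums of 1717 to 4494 in pups around 2903, 3211, 2815, 3474 and 3135 in adult and 5153, 5778, 5349 and 5944 in old rats. Glial markers of the olfactory nerve gave 3 of 8 higher and 2 lower, and 1 higher and 2 lower under quantile normalisation, where their median turned from 0.14 to -0.01, with Erbb3 the largest fall and Fabp7 the brightest; their sums were 125 to 1211 in pups around 591, 461, 284, 241 and 287 in adult and 473, 415, 458 and 599 in old rats. Of skeletal muscle markers only Myh3 was expressed in common, and it was higher by 7.13, with list sums of 17.2 to 533 in pups around 121, 1.13, 2.36, 1.40 and 1.05 in adult and 1.08, 0.99, 1.28 and 0.81 in old rats. Vomeronasal markers (3 tested, Gnao1 brightest) and sensory and autonomic nerve markers (2 tested, Isl1 brightest) gave 0 calls against adult rats in limma, with 2 and 0 at an unadjusted p under 0.05; the vomeronasal sums were 30.2 to 57.6 in pups around 46.5, 37.6, 33.2, 36.2 and 26.0 in adult and 40.5, 40.5, 32.8 and 43.4 in old rats, and the nerve sums 10.3 to 31.3 around 19.8, 15.2, 15.2, 14.9 and 16.2, and 23.9, 21.7, 19.9 and 25.4. Against old rats, 3 of 6 progenitor, 10 of 11 dividing cell, 1 of 5 horizontal basal cell and 2 of 3 vomeronasal markers were higher. So was the muscle gene Myh3, 1 of 1, and 28.4% of transcripts were called higher. Lower were 6 of 6 sustentacular, 2 of 8 glial and 2 of 2 nerve markers, beside 31.5% of transcripts. Between adult and old rats, 7 of 11 dividing cell, 2 of 3 vomeronasal, 1 of 6 progenitor and 1 of 8 glial markers were higher in adult rats, beside 15.9% of transcripts. Lower in adult rats were 3 of 10 mature neuron, 1 of 6 sustentacular, 1 of 8 glial, 1 of 2 nerve and 5 of 8 reference genes, beside 31.4%. The 8 reference genes gave 6 higher and 1 lower in newborn than in adult rats, 2 and 3 under quantile normalisation, with Ppia at 1.05, Ywhaz at -0.63 and Actb brightest, and a median of 0.52 that turned to -0.15 under quantile normalisation.

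The markers of olfactory bulb and brain tested were Gad1 and Slc32a1 of inhibitory neurons and Gfap of glia, Gad1 and Gfap being named after their values were seen. Of these 3, limma called 0 against adult rats and 0 against old rats, with 2 higher and 1 lower against adult rats and 1 higher against old rats at an unadjusted p under 0.05, the lower being Gfap. With normexp before quantile normalisation 1 of the 3 was called lower than in adult rats. The summed level of the 6 list genes with a probe, 3 of them not expressed in common, was 1.56 to 60.6 in pups around a median of 21.3, against 12.2, 6.96, 2.38 and 6.09 in adult and 7.40, 3.30, 7.62 and 12.9 in old rats, with Slc32a1 the brightest. In rat 32 of L4 the log2 level of Slc32a1 was 5.58, beside 0.76 to 1.62 for the other list genes with a probe. The highest sum of each litter was thus mostly Slc32a1, and not a joint measure of 6 genes. In each of the 4 litters the pup with the most Dcx, among those with a value, also had the most Crmp1 and Tubb3 and the highest sum: rat 9 of L1 with Dcx 9.19, Crmp1 5.15 and a sum of 55.9, rat 21 of L2 with 8.58, 4.44 and 31.6, rat 30 of L3 with 9.33, 5.10 and 51.3, and rat 32 of L4 with 9.60, 5.35 and 60.6. In L3 the order of the 5 pups was the same for the sum and for Dcx, while in L1, L2 and L4 it was not. In L1 rat 11 had the second highest sum, 38.0, with the lowest Dcx (8.49) and Crmp1 (4.53) of its litter, while rat 10 had the lowest sum, 21.1. In L2 rat 25, with a sum of 8.23, had less Dcx (7.88) than rat 23, with 1.56 (7.94). In L4 rat 31, with a sum of 4.05, had less Dcx (7.97) than rat 34, with 1.99 (8.15). Gng8 in these 4 highest pups was 8.11 in rat 9, 8.83 in rat 21, 8.62 in rat 30 and 8.73 in rat 32, the last 2 being the lowest of their litters. Dcx was 7.94 in rat 23 with a sum of 1.56 and 8.15 in rat 34 with 1.99, both above every adult rat. Without the pup of each litter with the highest sum, an alternative chosen after seeing the data, Dcx was higher than in adult rats by 1.44 and than in old rats by 1.29, Crmp1 by 0.02 and 0.71, Tubb3 by 0.39 (adjusted p 0.0215, not called) and 1.102 and Gng8 by 1.13 and 1.63, and 7 and 8 of the 9 genes were called higher, beside 40.3% and 28.8% of transcripts. Whether bulb tissue in the samples adds to Dcx, Crmp1 and Tubb3 was not tested.

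**Figure D3:**
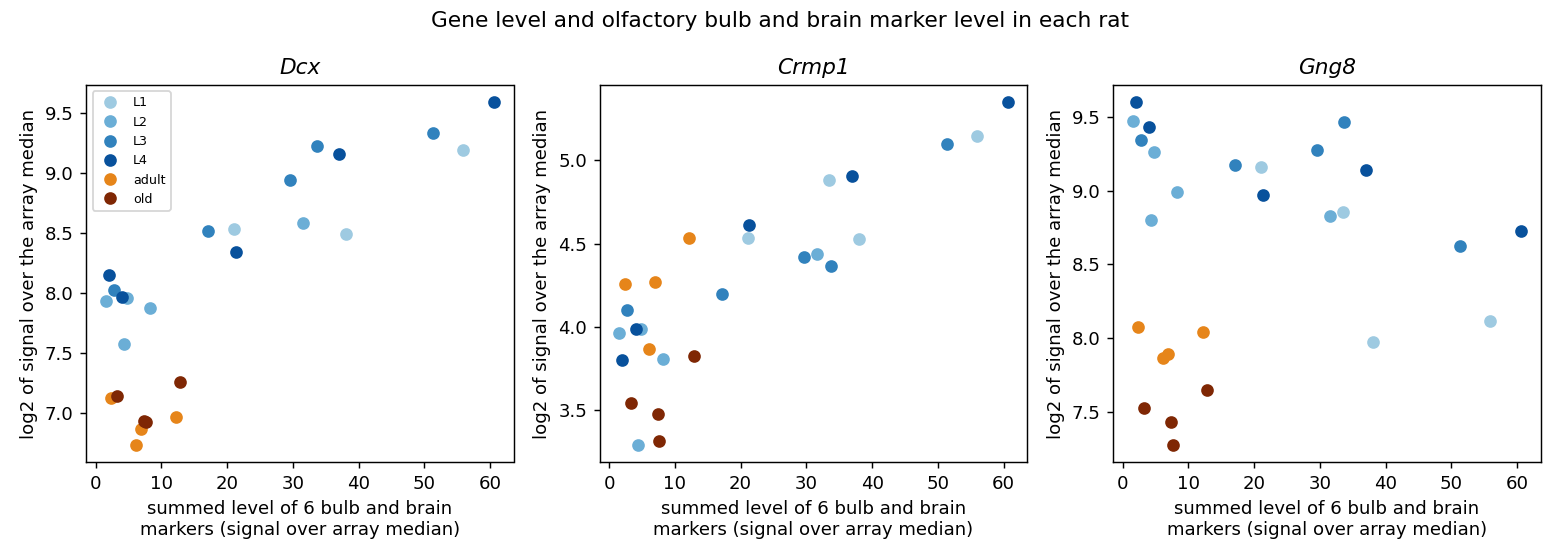
Dcx, Crmp1 and Gng8 levels (log2 of intensity over the array median, vertical axis) against the summed level of 6 olfactory bulb and brain markers (multiples of the array median, horizontal axis), with 1 point per rat coloured by group. The pups with sums of 55.9, 31.6, 51.3 and 60.6 are the highest of their litters in Dcx and Crmp1. In these pups the sum is mostly Slc32a1.

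Over the 27 rats, the 10 genes kept different company. Among 9714 named genes, the 10 themselves left out, those with the smallest root mean square difference from Stmn1, each gene centred on its mean, were the tubulin Tubb5 (0.148) and the DNA replication genes Mcm7 and Prim1. For Gng8 they were Qdpr (0.149), Prph and Ryr1, for Dcx, over 26 rats, Actl6b (0.158), Snrpn and Rab33a, and for Dpysl5 Dbn1 (0.211), Bex1 and Fcho1. Stmn2 had Nkiras2 (0.156), Amz2 and Olig1, Tubb3, over 26 rats, Slain1 (0.193), Marcksl1 and Src, and Ncam1 Rbm15b (0.177), Atg9a and Atp6v1a1. Gap43 had Rpl15 (0.259), H1f0 and Lxn, Dpysl3 Gdap1 (0.260), Gjd2 and Chd3, and Crmp1 Phyhipl (0.263), Dnajb5 and Celf2. These differences are not scaled to the spread of each gene, so their sizes are not compared between the 10 genes. Within the group the unscaled differences ran from 0.254, between Gap43 and Dpysl5, to 1.098, between Ncam1 and Dcx, and they too depend on the spread of each gene.

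The 10 genes lie on 10 chromosomes, and 6 of them had promoters in the RefSeq table, those of Gap43, Stmn2, Gng8 and Ncam1 being absent. In the 250 bases before the start of transcription (GRCr8), where Dpysl3 has 2 promoters, the Ebf site CCCNNGGG occurred in a promoter of Stmn1 and of Dpysl3, 2 of 7 promoters, beside 10.8% of 33469 promoters. The content of G and C was 67.6% and 67.2% in these 2, ran from 44% to 76.4% over the 7, and had a median of 51.2% over all promoters. The shares given here are not matched for it. The E-box CAGCTG occurred in the other Dpysl3 promoter, 1 of 7, beside 12.0%, and the homeodomain site TAATTA in Dcx, 1 of 7, beside 4.86%. Whether a factor binds these sites was not measured. The windows of Stmn1 (chr5:151965008-151965037, plus strand) and Dcx (chrX:112304289-112304318, minus strand) are given because they hold the Ebf and the homeodomain site.

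Stmn1 promoter: gagaggcggggCCCTCGGGcttcggggcgg

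Dcx promoter: aaaaaaagcatgTAATTAatcataggaggt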

How the data were processed

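The authors deposited 2 kinds of value. The first is the spot intensity as deposited by the authors, processed with Agilent Feature Extraction 9.5.1.1 (adult arrays) or 9.5.3.1 (all others, per the file headers), which subtracted local background and removed spatial trends, with no scaling between arrays. The second is a ratio, for which the authors divided each array by its median and each gene by its own; its column medians are 0.723 to 0.978, and 201310 of its values are 0.01. The intensities were used: values of repeated spots were averaged, divided by the array median, set to at least 0.01 and taken to log2, and each adult or old rat was given the mean of its arrays. Groups were compared with limma 3.58.1 in R 4.3.3 (lmFit and eBayes), with p-values adjusted by Benjamini and Hochberg over the transcripts expressed in common and called under 0.01; litter differences used its F test. The alternatives took the 75th percentile, quantile normalisation, normexp with an offset of 50, and slide (correlation 0.230) or scan day (0.252) as a random block. Python 3.11.15, NumPy 2.4.6, pandas 2.3.3 and matplotlib 3.10.9 made the summaries. The fits were first tested on simulated data. Symbols could be given to 17321 probes. The 10 genes and the lists were chosen with earlier results of these data known. Named besides the 10 genes are Omp, Gnal, Gng13, Neurog1, Mki67, Gad1 and Gfap, the largest called change in each direction between newborn and adult rats and the brightest gene of each list, and the 3 nearest genes of each of the 10. Some genes that this rule covers are not named. Gnal and Cnga2 were the alternatives to Omp.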

Additional observations from a re-analysis of the deposited data

Results flagged for a closer look

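Among 64 groups of 4 or 5 rats examined gene by gene, 4 held a rat far from the others, and chance gives about 1 such group in 20. Stmn1 in rat 11 of L1 was 9.76, with the other pups of the litter at 10.11 to 10.17. Dpysl3 in rat 11 of L1 was 4.61, with the others at 5.41 to 5.48. Dpysl5 in rat 24 of L2 was 3.58, with the others at 4.24 to 4.47; rat 24 was on slide 10 and scan day 5 and the others on slide 6 and scan day 4, and the part of this was not tested. Ncam1 in the old rat 19 was 3.96, with the others at 4.52 to 4.59.

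Differences among the 4 litters passed the threshold for Gap43 (adjusted p 1.17e-05), the first Stmn1 probe (adjusted p 0.00135) and the second Stmn1 probe (adjusted p 0.000308). Litter, age within 3 to 5 days and slide were not tested apart.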

How the results depend on the processing

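Of 424 values of the 10 genes under the alternatives, 375 kept direction and side of the threshold, 24 lost the call, 11 gained it and 14 turned direction. Of 982 list values, 924 moved by less than the limits set and 58 by more. Between newborn and adult rats, quantile normalisation gave -0.0200 for Stmn2, -0.230 for Tubb3 and -0.0396 for Crmp1, and normexp with it -0.0413 for Gap43, -0.343 for Stmn2 and -0.304 for Tubb3. Between adult and old rats, quantile normalisation gave 0.627 for Stmn1, 0.368 for Stmn2 and 0.346 for Dcx, normexp with it 0.705, 0.662 and 0.388, and Stmn1 was 0.0219 by the 75th percentile and 0.0962 as the mean of its probes. Genes higher in newborn than in adult rats numbered 4 under quantile normalisation and 4 with normexp; genes lower numbered 2 with normexp and 0 by the test of the authors' methods, where Ncam1 had an adjusted p of 0.0102; that test gave 6 genes higher, without Dpysl3 (0.0135), and 7 higher than in old rats, without Stmn2 (0.0115), and ended the adult to old calls of Dpysl5 (0.0135), Tubb3 (0.0626) and Ncam1 (0.0638) and gained that of Gng8 (0.0093). Against old rats 1 gene, Ncam1, was lower by the 75th percentile, and 0 to 1 when 1 rat was left out. Genes higher in adult than in old rats numbered 5 under quantile normalisation, 6 with normexp, 1 with slides and 0 with scan days as blocks, and 1 to 3 when 1 rat was left out. The causes were not tested. Gap43 minus Omp moved between 3.101 and 3.25 against adult and 4.49 and 4.58 against old rats when 1 rat was left out. Litters differed in 2 to 3 genes. Asking for signal above background on all arrays leaves no value for Dcx and Tubb3. With 4 adult and 4 old rats, the number of arrays limits the precision.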
